A study of Mus musculus with 6 samples.

Results

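The genes described are 42 genes of lung endothelium and of blood vessel growth, taken by symbol from the 18238 genes of the deposited count table. All 42 were present and all passed the filter on low counts. By known role they fall into 14 pan-endothelial genes, 7 capillary genes, 4 arterial and Notch genes, 4 venous and adhesion genes, 3 lymphatic genes and 10 angiogenic factors and co-receptors. RNA-seq libraries came from 6 mouse (Mus musculus) samples that the labels call lung cancer. The artemisinin group held 3 samples treated with artemisinin, an antimalarial compound, and the model group held 3 samples of the disease model with no treatment named. Nothing used here states strain, age, how tumours arose, whether tumour or whole lung was taken, dose or duration. The labels number the samples without saying that each came from a separate animal, so the p-values measure only the spread between these samples, which may be technical.

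Libraries held between 25566173 and 34745497 counts, and 3 counts stood at 0.0863 to 0.117 CPM. Lung epithelium and endothelium were present in every library. The 10 alveolar type 2 markers summed to between 10551 and 27142 normalised CPM (CPM, read counts per TMM-adjusted library size) with artemisinin and between 60038 and 86581 in the model. All 10 had a fitted change below 0 (median log2 −1.93), and 5 of them fell at an edgeR adjusted p under 0.05. All 6 smooth muscle markers and 6 of 7 neutrophil markers rose (edgeR adjusted p under 0.05), and the part of these cells in the values below was not tested. Artemisinin replicate 2 stood apart with 5031 normalised CPM of 5 skeletal muscle genes and 234.8 of 5 keratinocyte genes. The other libraries reached at most 55.4 and 8.57 normalised CPM of these lists. Artemisinin replicate 1 had the highest sum of 5 club cell genes, 72534 normalised CPM, and of 9 platelet genes, 336.6 normalised CPM. None of the 14 pan-endothelial markers was at 0.

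Endothelial cells line all vessels. In the lung they include general capillary cells, which renew the capillary bed, aerocytes, which are large capillary cells at the gas exchange surface, and the cells of arteries, veins and lymphatics. VEGF ligands act through the receptors encoded by Flt1, Kdr and Flt4 with neuropilins as co-receptors. Angiopoietin 1 activates and angiopoietin 2 mostly antagonises the Tie2 receptor, the product of Tek. Notch signalling favours arterial identity, and the transcription factor of Nr2f2 maintains venous identity.

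RefSeq start-site windows of GRCm38.p6 were at hand for 24 of the 42 members. Those of Car4, Efnb2 and Nr2f2 are shown because the transcripts belong to pairs whose ratio did not overlap between the groups. Each runs 5′ to 3′ on the strand of the gene over the 250 bases before the start. The bases just after the Efnb2 start were found in a transcript of that gene in GENCODE, another gene annotation. Those after the Car4 and Nr2f2 starts were not, so positions in these windows rest on the RefSeq start alone. Capitals mark any of 4 short motifs searched on both strands: the ETS core CCGGAA, the SOX core ACAAT, the hypoxia response core ACGTG and the RBPJ (Notch) core TGGGAA.
Car4, chr11:84957504-84957753, plus strand: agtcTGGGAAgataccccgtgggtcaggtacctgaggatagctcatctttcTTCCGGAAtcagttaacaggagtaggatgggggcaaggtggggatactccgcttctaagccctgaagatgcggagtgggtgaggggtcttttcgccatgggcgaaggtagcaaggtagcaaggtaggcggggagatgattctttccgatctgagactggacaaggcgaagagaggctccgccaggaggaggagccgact
Efnb2, chr8:8661243-8661492, minus strand: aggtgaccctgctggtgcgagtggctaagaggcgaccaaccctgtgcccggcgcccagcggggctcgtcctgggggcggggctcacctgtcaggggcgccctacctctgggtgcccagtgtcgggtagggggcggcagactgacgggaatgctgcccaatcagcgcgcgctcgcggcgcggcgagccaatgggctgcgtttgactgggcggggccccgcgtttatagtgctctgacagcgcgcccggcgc
Nr2f2, chr7:70366747-70366996, minus strand: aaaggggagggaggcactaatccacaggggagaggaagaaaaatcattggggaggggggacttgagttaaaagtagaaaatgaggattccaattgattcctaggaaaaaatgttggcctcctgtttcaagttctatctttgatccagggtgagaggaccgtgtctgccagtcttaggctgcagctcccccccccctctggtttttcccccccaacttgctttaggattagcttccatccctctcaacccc
The Car4 window held the ETS core on both strands, in overlapping positions 199 and 197 bases before the start, and the RBPJ core 246 bases before it. The windows of Efnb2 and Nr2f2 held none of the 4 motifs, and their GC content was 72.0% and 50.0%. Among the 24 members with a window, the ETS core was found for 2 (Car4 and Kdr), the SOX core for 3 (Emcn, Notch4 and Tek), the hypoxia response core for 1 (Vegfa) and the RBPJ core for 6. Some members have more than 1 window, and by window the counts were 2, 3, 1 and 7 of 27. Over all 32851 windows the shares were 12.0%, 27.7%, 16.6% and 21.6%.

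No member passed the test between artemisinin and the model. In the quasi-likelihood test of edgeR, adjusted after Benjamini and Hochberg over 15242 genes, 0 of 42 were higher and 0 lower at an adjusted p under 0.05. Over all genes tested 2.17% were called higher and 2.30% lower, 4.47% in all. At an unadjusted p under 0.05, 4 members stood higher and 3 lower, where 24.7% of all genes had such a p. The 3 artemisinin values lay entirely above the 3 model values for 4 members (Nos3, Nr2f2, Selp and Pgf) and entirely below for 3 (Aplnr, Angpt2 and Nrp1). Over all genes this held for 15.8% and 18.0%, together 33.8%, so the count among the members was not above the background. The median log2 fold change of the members was −0.02, beside 0.04 over all genes tested, with a range from −0.85 to 0.90. DESeq2 called 1 member higher, Nr2f2 (adjusted p = 0.0137), and 1 lower, Aplnr (adjusted p = 0.0308), and limma called 0. Over all 15242 genes DESeq2 called far more than edgeR, 1234 higher and 1052 lower, so these 2 calls do not set the members above the background. In bulk tissue, fewer cells of a type and less RNA per cell cannot be told apart.

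**Figure D1:**
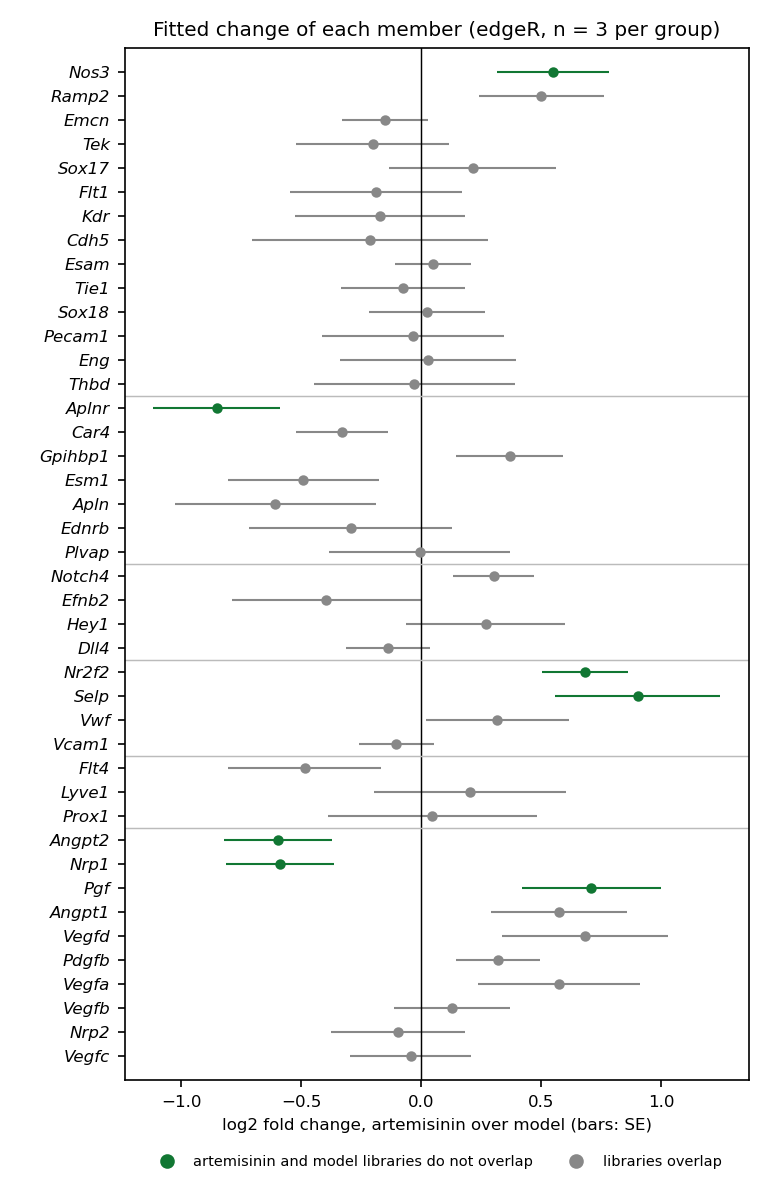
Log2 fold change of each of the 42 members, artemisinin over model, with the standard error of the edgeR fit (n = 3 libraries per group), ordered within the 6 subgroups by p. The 7 members whose libraries do not overlap between groups are green, and they span −0.85 (Aplnr) to 0.90 (Selp).

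The pan-endothelial genes Cdh5, Pecam1 and Kdr differed more between libraries of a group than between the groups. Cdh5, the vascular cadherin of endothelial junctions, stood at 207, 463 and 879 normalised CPM in artemisinin replicates 1 to 3 and at 408, 677 and 718 in the model replicates. Artemisinin replicate 1 was the lowest and artemisinin replicate 3 the highest of all 6 libraries, and model replicate 1 was the lowest of its group. Pecam1, which encodes the adhesion molecule CD31, showed the same extremes with 333, 543 and 905 normalised CPM with artemisinin and 429, 709 and 694 in the model. Kdr, the main signalling receptor for VEGF-A, stood at 173, 258 and 426 normalised CPM with artemisinin and at 222, 375 and 372 in the model. Artemisinin replicates 1 and 3 again bracketed all model libraries. The log2 fold changes were −0.21 ± 0.49 for Cdh5, −0.04 ± 0.38 for Pecam1 and −0.17 ± 0.36 for Kdr (SE; edgeR adjusted p = 0.807, 0.962 and 0.782). The sign of all 3 turned with a single library, and that of Pecam1 turned in 6 of 13 alternatives, library totals (0.07) and endothelial reference scaling (0.01) among them. Without artemisinin replicate 1 the values were 0.16, 0.25 and 0.09, and without artemisinin replicate 3 they were −0.88, −0.51 and −0.62.

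**Figure D2:**
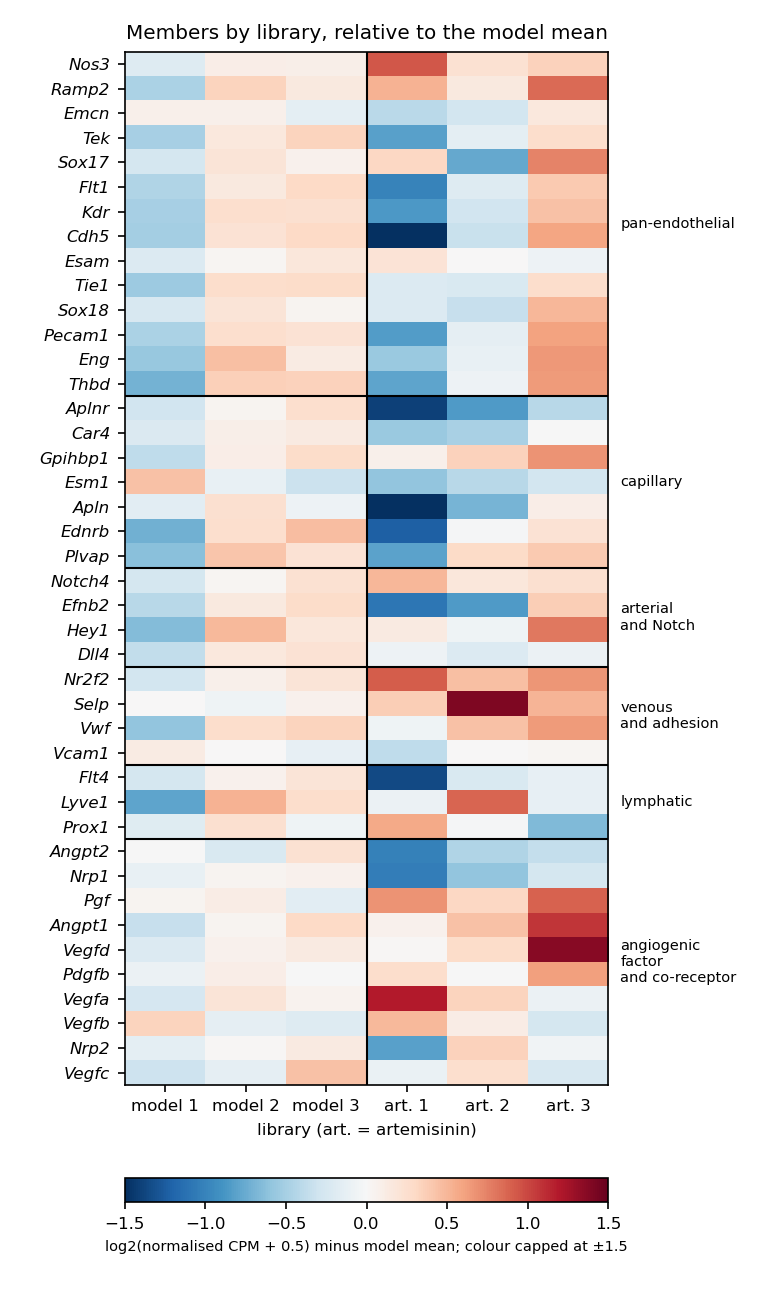
Each of the 42 members in each of the 6 libraries, as log2(normalised CPM + 0.5) minus the mean of the 3 model libraries, with blue below and red above that mean and colour capped at ±1.5. Much of the pan-endothelial block is blue in model replicate 1 and artemisinin replicate 1 and red in artemisinin replicate 3, whereas Aplnr and Nrp1 are blue, and Nr2f2 and Pgf red, in all 3 artemisinin libraries.

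Several other pan-endothelial genes tracked Cdh5 from library to library. Across the 6 libraries the Pearson correlation of log2 levels with Cdh5 was 0.99 for Flt1, 0.98 for Kdr, 0.97 for Pecam1, 0.96 for Tek and 0.93 for Thbd, the thrombomodulin gene. These are descriptions over 6 points that share library and scaling. Esam, which encodes an adhesion molecule of endothelial tight junctions, and Nos3, the endothelial nitric oxide synthase gene, stood at −0.28 and −0.57. Esam was nearly level, at 193, 168 and 159 normalised CPM with artemisinin and 146, 171 and 188 in the model. The pan-endothelial transcripts thus did not vary between libraries as a single block. Over the 42 members the correlation of a library's deviation from the model mean with transcript GC content lay between −0.08 and 0.20 in the 6 libraries. With the logarithm of transcript length it lay between −0.25 and 0.33. Over the 22 reference genes described below, the correlation with GC content reached 0.60 in artemisinin replicate 1. Over the same genes that with length was −0.46 in artemisinin replicate 1 and −0.57 in artemisinin replicate 3. Over all genes tested, length stood at −0.25 in artemisinin replicate 1, and the part of GC content and length in these values was not tested.

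The smallest p of the pan-endothelial genes belonged to Nos3 and Ramp2. Nos3 stood at 26.4, 16.0 and 17.4 normalised CPM with artemisinin and at 11.9, 14.6 and 14.5 in the model (log2 0.55 ± 0.23, SE; edgeR adjusted p = 0.201). The groups did not overlap, but artemisinin replicate 1 stood well above the other libraries, and without it the log2 difference was 0.30. Relative to the 22 endothelial genes described below, the groups of Nos3 overlapped. Ramp2, a co-receptor for adrenomedullin that vascular integrity needs, stood at 224, 173 and 283 normalised CPM with artemisinin and at 112, 197 and 173 in the model. Its groups overlapped (log2 0.50 ± 0.26, SE; edgeR adjusted p = 0.276). The other members of the subgroup, which include the Tie receptor gene Tie1, the endoglin gene Eng, the endomucin gene Emcn and the transcription factor genes Sox17 and Sox18, overlapped between groups. Of the 14, 6 had a fitted change above 0 and 8 below, with a median of −0.03.

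**Figure D3:**
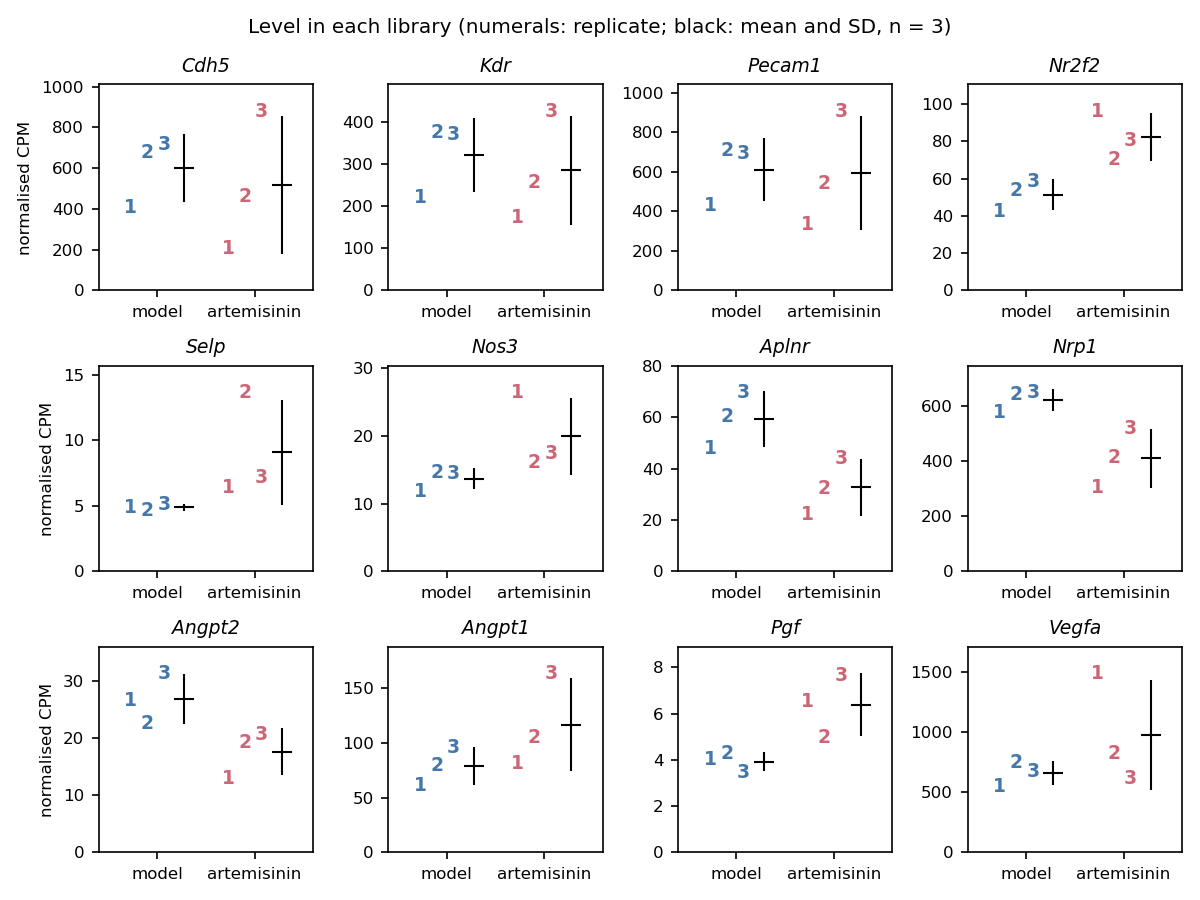
Normalised CPM of 12 members in each library, with numerals for the replicate, the model in blue and artemisinin in red, and the mean and SD (n = 3) in black. Cdh5, Kdr and Pecam1 overlap widely, whereas the artemisinin values of Nr2f2, Selp, Nos3 and Pgf lie above, and those of Aplnr, Nrp1 and Angpt2 below, all model values.

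Capillary genes were mostly on the low side with artemisinin, without a call. Of the 7, 6 had a fitted change below 0 and 1 above, with a median of −0.33, beside 7138 of 15242 genes tested below 0. Plvap, at −0.01, changed sign in 6 of 13 alternatives, and Ednrb, at −0.29, was at 0.03 without artemisinin replicate 1. Aplnr, the apelin receptor gene, which marks general capillary cells and veins, stood at 22.0, 32.2 and 43.8 normalised CPM with artemisinin and at 47.9, 60.2 and 69.6 in the model. All artemisinin values lay below the model values (log2 −0.85 ± 0.27, SE; edgeR adjusted p = 0.114). Apln, which encodes the ligand apelin and marks aerocytes, stood at 18.4, 39.5 and 68.8 normalised CPM with artemisinin and at 57.4, 75.9 and 60.8 in the model. Those groups overlapped, and the log2 difference ran from −1.20 without artemisinin replicate 3 to −0.25 without artemisinin replicate 1.

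The capillary markers Car4 and Gpihbp1 pointed in opposite directions. Car4, the carbonic anhydrase 4 gene of aerocytes, stood at 101, 106 and 149 normalised CPM with artemisinin and at 128, 158 and 163 in the model (log2 −0.33 ± 0.19, SE; edgeR adjusted p = 0.326). Gpihbp1, which encodes the capillary anchor of lipoprotein lipase and marks general capillary cells, stood at 70.6, 84.9 and 107 normalised CPM with artemisinin and at 51.1, 71.7 and 81.2 in the model (log2 0.37 ± 0.22, SE; edgeR adjusted p = 0.336). Each gene overlapped between groups when taken alone. Ednrb, the endothelin receptor B gene, and Plvap, a gene of fenestral diaphragms, ranged 2.73-fold and 2.29-fold within the artemisinin group and 2.28-fold and 2.07-fold within the model. Esm1, a gene of sprouting tip cells, was low in all libraries, at 3.95 to 5.07 normalised CPM with artemisinin and 4.85 to 8.59 in the model.

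Within a library, the ratio of Car4 to Gpihbp1 counts was 1.43, 1.25 and 1.39 in artemisinin replicates 1 to 3 and 2.50, 2.20 and 2.01 in the model replicates. The ratio was thus lower in each artemisinin library than in any model library, by 1.64-fold on average (log2 −0.72; exact two-sided permutation p = 0.1, adjusted p = 0.133 over the 4 ratios tested). With 3 against 3 libraries 0.1 is the smallest p this test can give, so no ratio could pass the threshold. The 4 pairs were picked with earlier results known, and no background share was computed for pairs of genes, beside the 33.8% of single genes whose groups did not overlap. Library scaling and gene length cancel in this difference, and with each library omitted in turn it ranged from −0.79 to −0.64. Other markers of these cells did not all follow the ratio. Aplnr, also a marker of general capillary cells, was below 0 (log2 −0.85) where Gpihbp1 was above, and the aerocyte gene Apln was below 0 (−0.61) like Car4. The ratio thus describes 2 genes and not the share of 2 cell types.

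Arterial and Notch genes did not separate the groups. Efnb2, which encodes the arterial ligand ephrin-B2, stood at 95.9, 114 and 264 normalised CPM with artemisinin and at 153, 225 and 247 in the model (log2 −0.40 ± 0.39, SE; edgeR adjusted p = 0.554). Artemisinin replicates 1 and 2 lay below the model and artemisinin replicate 3 above it. The log2 difference was −1.02 without artemisinin replicate 3 and −0.14 without artemisinin replicate 1. Notch4, an endothelial Notch receptor gene, stood at 97.0, 77.7 and 81.0 normalised CPM with artemisinin and at 57.3, 70.1 and 80.9 in the model (log2 0.30 ± 0.17, SE; edgeR adjusted p = 0.302). Dll4, a Notch ligand gene of arteries and tip cells, and Hey1, a Notch target gene, had log2 differences of −0.14 ± 0.18 and 0.27 ± 0.33 (SE). Of the 4 genes 2 were above 0 and 2 below, with a median of 0.07.

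Nr2f2 had the smallest p of the 42. The gene (chromosome 7, 70351946 to 70366746, GRCm38.p6) encodes the nuclear receptor COUP-TFII of venous and lymphatic endothelium, which fibroblasts and smooth muscle express too. It stood at 96.1, 70.1 and 80.7 normalised CPM with artemisinin and at 42.2, 53.6 and 58.5 in the model. All artemisinin values were higher than all model values, by 1.61-fold in the fit (log2 0.68 ± 0.18, SE; edgeR adjusted p = 0.0768). Leaving out artemisinin replicate 2 gave a call (log2 0.78; edgeR adjusted p = 0.0482), whereas the adjusted p in the other edgeR and limma fits lay between 0.0599 and 0.306. Without artemisinin replicate 2, 670 genes were called higher and 713 lower of 15427, beside 331 and 351 of 15242 in the main fit. Smooth muscle markers also differed: 6 smooth muscle genes summed to between 881.3 and 1437 normalised CPM with artemisinin and between 220.4 and 360.8 in the model. Sums of 9 pericyte and fibroblast genes were 1161 to 1774 with artemisinin and 996.9 to 1298 in the model, and the part of either cell type in the Nr2f2 values was not tested.

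Selp, the P-selectin gene of venous endothelium and platelets, stood at 6.43, 13.7 and 7.15 normalised CPM with artemisinin and at 4.89, 4.63 and 5.14 in the model (log2 0.90 ± 0.34, SE; edgeR adjusted p = 0.168). The groups did not overlap, and the log2 difference was 0.47 without artemisinin replicate 2, the library with the muscle and keratinocyte transcripts. The 9 platelet genes summed to 336.6, 70.1 and 100.3 normalised CPM in artemisinin replicates 1 to 3. The model sums lay between 40.3 and 89.2. Averaging the log2 deviation of each gene from the model gave 3.11, 0.88 and 1.43 in the same artemisinin replicates. For model replicates 1 to 3 these averages were −0.32, 0.62 and −0.30. Of the 9 genes, 8 had a fitted change above 0 and 1 below (median log2 2.82), and 6 lay entirely above the model. EdgeR called 0 of them, and the part of platelets in the Selp values was not tested. Vwf, the von Willebrand factor gene, stood at 353, 502 and 575 normalised CPM with artemisinin and at 244, 444 and 464 in the model (log2 0.32 ± 0.30, SE; edgeR adjusted p = 0.532). Vcam1, an adhesion molecule gene for leukocytes, was level at 67.8 to 90.3 normalised CPM with artemisinin and 81.1 to 96.7 in the model.

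Efnb2 was also set against Nr2f2 within each library. The ratio of their counts was 0.998, 1.62 and 3.27 in artemisinin replicates 1 to 3 and 3.63, 4.20 and 4.21 in the model replicates. Artemisinin replicate 3 came close to the model, and artemisinin replicate 1 lay farthest from it (log2 −1.20; exact two-sided permutation p = 0.1, adjusted p = 0.133). The difference was −0.80 without artemisinin replicate 1 and −1.66 without artemisinin replicate 3.

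Lymphatic genes showed no common direction. Flt4, the VEGF receptor 3 gene, which lung capillaries also express, stood at 16.4, 36.2 and 39.0 normalised CPM with artemisinin and at 35.5, 44.5 and 49.0 in the model (log2 −0.49 ± 0.32, SE; edgeR adjusted p = 0.376). Lyve1, a hyaluronan receptor gene of lymphatics and of some macrophages, varied 2.0-fold within the artemisinin group and 2.49-fold within the model. Its values were 109, 212 and 106 normalised CPM with artemisinin and 66.7, 167 and 140 in the model (edgeR adjusted p = 0.771). Prox1, the transcription factor gene that specifies lymphatic identity, was the least abundant member, at 1.89 to 5.13 normalised CPM with artemisinin and 2.85 to 3.98 in the model.

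Among the ligands, Vegfa was the most abundant. The gene (chromosome 17, 46016993 to 46032377) encodes VEGF-A, which in lung comes largely from alveolar epithelium. It stood at 1490, 825 and 612 normalised CPM with artemisinin and at 550, 748 and 674 in the model (log2 0.57 ± 0.34, SE; edgeR adjusted p = 0.327). Artemisinin replicate 1 lay far above the other libraries, and without it the log2 difference was 0.14. That library also had the highest club cell sum, 72534 normalised CPM against 7964 to 28114 in the others, and the part of those cells was not tested. The 8 alveolar type 1 markers summed to 4101, 5830 and 2678 normalised CPM in artemisinin replicates 1 to 3 and to between 3781 and 4977 in the model. The 10 alveolar type 2 markers summed to 17849, 27142 and 10551 in artemisinin replicates 1 to 3 and to between 60038 and 86581 in the model. The part of either cell type in the Vegfa values was not tested.

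The other VEGF family genes were far lower. Pgf, the placental growth factor gene, whose product binds the receptor of Flt1, stood at 6.54, 4.98 and 7.67 normalised CPM with artemisinin and at 4.04, 4.26 and 3.47 in the model. The groups did not overlap (log2 0.71 ± 0.29, SE; edgeR adjusted p = 0.188). Vegfd, a ligand gene for VEGF receptor 3 that lung fibroblasts express, stood at 37.7, 45.3 and 97.4 normalised CPM with artemisinin and at 32.4, 39.2 and 41.2 in the model. Its log2 difference of 0.68 was 0.11 without artemisinin replicate 3, so that 1 library held most of it. Vegfb and Vegfc, the genes of the other VEGF ligands, had log2 differences of 0.13 ± 0.24 and −0.04 ± 0.25 (SE). Pdgfb, which encodes the growth factor by which endothelium recruits pericytes, had one of 0.32 ± 0.17 (SE; edgeR adjusted p = 0.292).

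The angiopoietin genes pointed in opposite directions. Angpt1, made by pericytes, fibroblasts and smooth muscle, stood at 80.8, 105 and 163 normalised CPM with artemisinin and at 60.8, 79.5 and 95.5 in the model (log2 0.57 ± 0.28, SE; edgeR adjusted p = 0.256). Without artemisinin replicate 3 the log2 difference of Angpt1 was 0.21, so that 1 library held most of it. Angpt2, which endothelial cells store and release, stood at 13.0, 19.3 and 20.6 normalised CPM with artemisinin and at 26.5, 22.6 and 31.4 in the model (log2 −0.60 ± 0.23, SE; edgeR adjusted p = 0.165). Only the second of these genes had groups that did not overlap. The ratio of Angpt2 to Angpt1 counts was 0.161, 0.183 and 0.126 in artemisinin replicates 1 to 3 and 0.437, 0.285 and 0.328 in the model replicates. Every artemisinin ratio lay below every model ratio, by 2.22-fold on average (log2 −1.15; exact two-sided permutation p = 0.1, adjusted p = 0.133), and the difference ranged from −1.29 to −0.98 with each library omitted in turn.

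**Figure D4:**
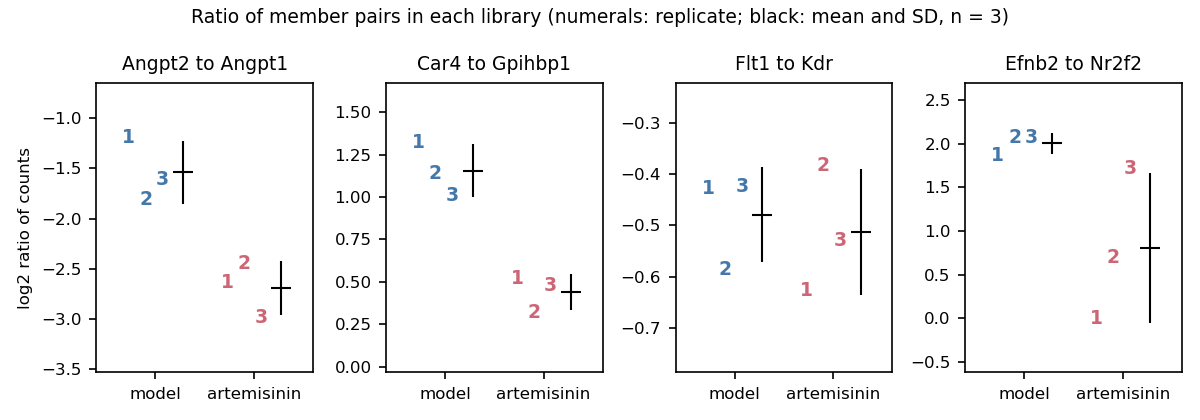
Log2 ratio of the counts of 4 pairs of members in each library, with numerals for the replicate, the model in blue and artemisinin in red, and the mean and SD (n = 3) in black. The ratios of Angpt2 to Angpt1, Car4 to Gpihbp1 and Efnb2 to Nr2f2 do not overlap between groups, and that of Flt1 to Kdr does.

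Of the neuropilin co-receptors, Nrp1 was lower in every artemisinin library. It stood at 304, 413 and 518 normalised CPM with artemisinin and at 576, 642 and 650.4 in the model (log2 −0.59 ± 0.22, SE; edgeR adjusted p = 0.167). Nrp2, which serves lymphatic and venous endothelium, overlapped at 57.7, 129 and 97.7 normalised CPM with artemisinin and 91.5, 103 and 112 in the model. The receptor ratio of Flt1, whose product traps VEGF-A, to Kdr was 0.648, 0.767 and 0.693 with artemisinin and 0.744, 0.666 and 0.745 in the model. Its log2 difference was −0.03, and the groups overlapped (exact two-sided permutation p = 0.9, adjusted p = 0.9). Of the 10 factors and co-receptors, 6 were above 0 and 4 below, with a median of 0.23.

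The level of endothelial transcripts as a whole differed from library to library. A reference of 22 further endothelial genes that are not members, among them Cldn5, Cd93 and Ptprb, summed to 3764, 5621 and 9047 normalised CPM in artemisinin replicates 1 to 3 and to 4973, 7901 and 7989 in the model replicates. None of the 22 was called. The artemisinin libraries spanned more than the whole range of the model libraries. Relative to the geometric mean of these 22 genes, a scaling added after seeing the data, 6 members lay entirely above the model (Ramp2, Gpihbp1, Nr2f2, Vegfd, Pgf and Angpt1) and 4 entirely below (Apln, Aplnr, Efnb2 and Nrp1). On that scale 9.70% of all genes lay entirely above and 4.22% entirely below. Angpt1 stood at 0.73, 0.66 and 0.58 above the model mean on the log2 scale in artemisinin replicates 1 to 3, and Aplnr at −0.75, −0.65 and −0.92. Both genes were more even across the artemisinin libraries on that scale than per library total. With this scaling edgeR called 0 members, 5.19% of all genes, and 2 members had an unadjusted p under 0.05.

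**Figure D5:**
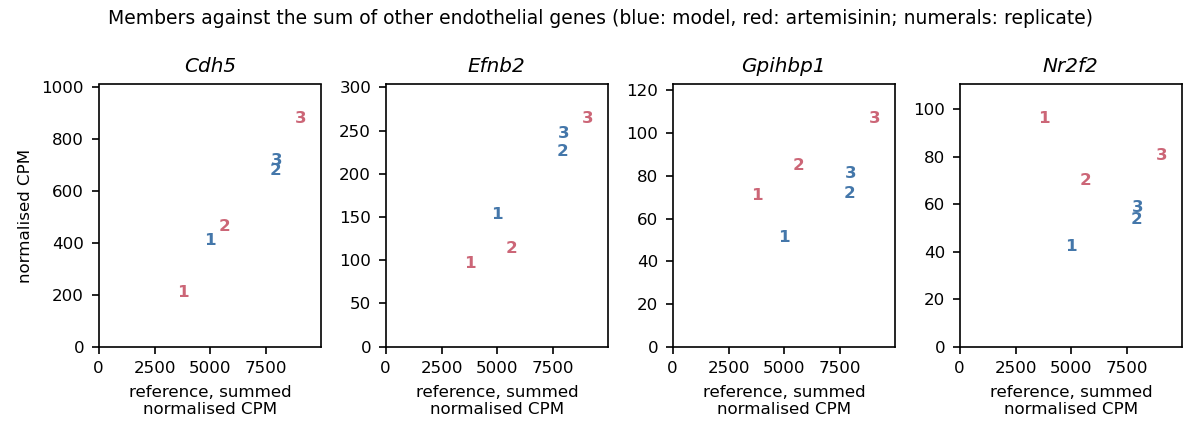
Normalised CPM of 4 members against the summed normalised CPM of 22 endothelial genes that are not members, in the 6 libraries (numerals: replicate; blue: model; red: artemisinin). Cdh5 follows the reference in both groups, and Gpihbp1 lies higher relative to the reference sum in the artemisinin libraries. Efnb2 lies lower relative to that sum in the artemisinin libraries except the one with the highest sum. In that library Efnb2 lies within the model range relative to the sum. Nr2f2 is highest in artemisinin replicate 1, where the reference is lowest.

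Levels of different genes can be compared per length, as FPKM. In the model Ramp2 (178 ± 51.1 FPKM), Pecam1 (177 ± 47.8 FPKM), Thbd (153 ± 57.1 FPKM), Vegfa (152 ± 25.8 FPKM) and Cdh5 (144 ± 41.6 FPKM) were the most abundant members (SD, n = 3). Their order lies within their spread. Car4 and Gpihbp1 stood at 89.0 ± 12.5 and 79.5 ± 18.6 FPKM in the model, and at 76.0 ± 17.9 and 110 ± 23.7 FPKM with artemisinin. Each gene alone overlapped between groups. Within every artemisinin library Gpihbp1 stood above Car4, and within every model library it stood below. In model replicate 3 the 2 were close, at 96.6 FPKM for Car4 and 94.5 for Gpihbp1. This order rests on the same counts as the ratio above and is no further test. Pgf, Selp and Prox1 were the least abundant, at 2.24 ± 0.257, 1.37 ± 0.0577 and 0.373 ± 0.0735 FPKM in the model. For 30 of 42 members the SD of log2 levels was larger with artemisinin than in the model, 71.4% beside 76.0% of all genes tested.

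Wider lists of vessel and pathway genes held 95 genes that are not members, and 1 of these rose and 1 fell. Over all genes tested 4.47% were called, so these calls were not above the background. Both came from the lymphatic list of 8, whose other genes were not called. That list had no common direction, with 4 genes above 0, 4 below and a median of 0.07. Maf, a transcription factor gene of lymphatics that macrophages and T cells also use, rose to 38.7 ± 3.68 normalised CPM, from 20.6 ± 2.02 in the model (mean ± SD, n = 3; log2 0.92, edgeR adjusted p = 0.0245). Itga9, which encodes an integrin subunit of lymphatic valves and of smooth muscle, fell to 73.2 ± 28.8 normalised CPM, from 246 ± 28.3 in the model (mean ± SD, n = 3; log2 −1.74, edgeR adjusted p = 0.0252). Both lost their calls without any 1 model replicate and in the replicate block fit (edgeR adjusted p = 0.0736 for Maf and 0.0586 for Itga9), Maf also with endothelial reference scaling (edgeR adjusted p = 0.205), and Itga9 also without artemisinin replicate 1 (edgeR adjusted p = 0.0537). The groups of Maf and Itga9 did not overlap.

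In the wider vein list of 7 tested genes, 0 passed. Slc6a2, a noradrenaline transporter gene of lung veins, stood at 40.8, 42.7 and 30.3 normalised CPM with artemisinin and at 11.2, 16.8 and 24.6 in the model (log2 1.12 ± 0.30, SE; edgeR adjusted p = 0.0798). Cpe, the carboxypeptidase E gene, stood at 64.1, 68.9 and 27.1 normalised CPM with artemisinin and at 19.5, 24.5 and 23.5 in the model (edgeR adjusted p = 0.0830). Neither overlapped between groups, beside 15.8% of all genes that lay entirely above the model. Of the list 4 genes were above 0 and 3 below (Bst1 −0.56, Icam1 −0.31 and Ephb4 −0.11), and its median was 0.65. Without artemisinin replicate 3 Cpe was called (log2 1.53; edgeR adjusted p = 0.0153), as it was with endothelial reference scaling (edgeR adjusted p = 0.0243). DESeq2 called Slc6a2 and Cpe (adjusted p = 0.00771 and 0.00590). Over all 15242 genes DESeq2 called 1234 higher and 1052 lower. The fit without artemisinin replicate 3 called 276 higher and 218 lower of 15492, and endothelial reference scaling called 568 and 223. For the 14 wider-list genes that were called or had the 2 smallest p of a list, 182 pairs of gene and alternative were run. Of these pairs 9 gained a call and 10 lost one.

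None of 13 wider capillary genes, 12 wider arterial genes, 13 Notch genes or 24 further VEGF and angiopoietin pathway genes passed, and their medians were −0.14, −0.15, 0.25 and 0.10. Tbx2 and Cd36 had the smallest p in the capillary list, with log2 differences of 0.69 and −1.08 (edgeR adjusted p = 0.125 and 0.149). In the arterial list these were Unc5b and Jag1, at −0.99 and −0.32 (edgeR adjusted p = 0.248 and 0.254). For the Notch list they were Heyl, a Notch target gene, and Rbpj, the gene of the Notch effector, at 0.47 and 0.31 (edgeR adjusted p = 0.115 and 0.216). In the VEGF and angiopoietin list they were Ccbe1, whose product aids VEGF-C activation, and Plcg1, a signalling gene downstream of Kdr, at 0.92 and −0.52 (edgeR adjusted p = 0.113 and 0.117). In the endothelial reference they were Egfl7 and Fli1, at 0.66 and 0.33 (edgeR adjusted p = 0.206 and 0.233). Without artemisinin replicate 2 Egfl7 was called (log2 0.92; edgeR adjusted p = 0.0290). That fit called 670 genes higher and 713 lower of 15427 tested.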

How the data were processed

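Libraries were made with a stranded mRNA kit from total RNA of 6 samples, per the labels' protocols, and grouped 3 and 3 by title. Per the submitters' processing notes the build was GRCm38 (mm10); the sources used here name no aligner, counter, annotation or strand setting, so overlapping or antisense genes may share reads. The authors deposited raw read counts per gene, and FPKM that equal those counts over library total and a length per gene (largest relative gap 3.58e-08 over 13758 genes). Counts were tested with edgeR 4.0.16 (R 4.3.3): filterByExpr (15242 genes kept), TMM, robust quasi-likelihood fit, Benjamini-Hochberg adjustment over all genes, threshold 0.05. Ratios of counts (0.5 added) had an exact permutation test (scipy 1.17.1). Alternatives were DESeq2 1.42.0, limma 3.58.1 on log2(FPKM + 0.1), which understates changes of low genes, other scalings, no filter, each library left out and a replicate block. On simulated data with this design, edgeR recovered 21% of 2-fold and 71% of 4-fold changes over 15455 genes. Members and lists were chosen with earlier results of these data known. Values in every library are given for the 2 members of each subgroup with the smallest p and for 8 set members, with further members added, and the 2 smallest p and all calls are given for wider lists.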

Additional observations from a re-analysis of the deposited data

How the results depend on the processing

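Of the 42 members 21 kept their sign in all 13 alternatives that gave a value, among them Nr2f2, Selp, Nos3, Pgf, Aplnr, Nrp1, Angpt2 and Angpt1, and 21 changed sign in at least 1 without a call. Prox1 was below the minimum FPKM of the limma fit. Members called higher were 1 with DESeq2 and 0 to 1 with 1 library left out, and members called lower were 1 with DESeq2 and 0 with any library left out. Over all genes, 331 were called higher and 351 lower, against 1234 and 1052 with DESeq2, 65 and 63 in the replicate block fit, 568 and 223 with endothelial reference scaling (chosen after seeing the data), and 6 to 670 and 11 to 713 with 1 library left out. With library totals alone the split was 464 against 319, and the median of all genes moved from 0.04 to 0.15. The cause of these shifts was not tested. No pairing by replicate number was visible: deviations of same-numbered libraries correlated at −0.004, −0.10 and 0.03. Those of libraries with different numbers lay between −0.10 and 0.10. With 3 libraries per group these values cannot exclude a weak pairing. In the block fit 0 members were called. The 3 ratios that separated the groups kept their direction with each library left out, as groups that do not overlap must. They also kept it with FPKM, which rest on the same counts, and in the block, whose mean difference equals the main one by arithmetic. None of these settings is therefore a further test of the direction. The Flt1 to Kdr difference of −0.03 lay between −0.10 and 0.02 with 1 library left out, and turned to 0.023 without artemisinin replicate 1. With 3 pairs the sign-flip test of the block cannot go below 0.25, and it gave log2 differences of −1.15, −0.72, −0.03 and −1.20 for the 4 ratios. With 3 samples per group, changes under 2-fold are mostly below what the test detects.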
